A study of Mus musculus with 12 samples.

Results

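Antisense noncoding gene models were described in brain tissue of mice with and without telomerase reverse transcriptase. A model was included when GENCODE M21 (mouse genome GRCm38) gives it the biotype antisense, when it is not Kcnq1ot1, and when its mean normalized count reached 10 in the cortex or in the hippocampus. These conditions were met by 1211 of the 2959 antisense models and of the 55487 gene rows of the tables. The last models to enter were Gm10538 and A630072L19Rik, with highest tissue means of 10.0034 and 10.0106, and the first to miss were Gm20717 and Gm48001, with 9.98 and 9.90. For each model the partner was the protein-coding gene on the opposite strand that shares the most bases with it, and 1136 models had one.

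Total RNA was measured in 12 libraries from C57BL/6 mice, 3 in each of 4 groups: wild-type (mTert WT) cerebral cortex, knockout (mTert KO, labelled G1) cerebral cortex, wild-type hippocampus and knockout hippocampus. The knockout is also labelled Homo, read here as homozygous. No other allele, treatment, age or sex is given in the sources used here for any group, nor how the targeted allele was made. The labels do not tie a library to an animal, and p-values therefore measure the spread between these libraries, which may be technical. The question asked of each tissue was which antisense models differ between the genotypes, and whether the protein-coding gene across from each differs too.

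Natural antisense RNAs are transcribed from the strand opposite another gene. Some start near the promoter of a coding gene and run away from it or into it, others begin inside an intron of a long gene, and others converge on its end. Known members act in cis, as Airn does when its transcription silences the paternal copy of Igf2r, or in trans, as has been described for Dlx6os1 (Evf2) at the Dlx genes, and many are made at a low level, kept in the nucleus and degraded quickly.

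Sequences are given for 8 models named below, because a spliced junction tells such an RNA from the intron or exon of the coding gene across from it. Reads over these junctions were not counted, and the values below are counts over the exons of each model. Each line holds the last 30 bases of one exon, in lower case, and the first 30 bases of the next, in capitals, written 5′ to 3′ on the model's own strand and read from GRCm38 with GENCODE M21 exons. No window lies under an exon of the other strand. The first 5 models fell in the knockout hippocampus and lie inside Rbfox2, Anxa11, Msi2, Cadps and Rapgef4, Srrm4os fell in both tissues, Prkag2os1 rose in hippocampus, and Gm12925 lies in Macf1, which fell while Gm12925 was not called.
1700109K24Rik: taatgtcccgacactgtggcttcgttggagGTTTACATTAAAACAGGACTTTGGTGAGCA
Anxa11os: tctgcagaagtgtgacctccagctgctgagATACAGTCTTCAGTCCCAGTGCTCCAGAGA
Gm15893: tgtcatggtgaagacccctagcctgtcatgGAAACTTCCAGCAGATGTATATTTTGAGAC
Gm48239: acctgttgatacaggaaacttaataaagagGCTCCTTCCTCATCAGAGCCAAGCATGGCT
Rapgef4os3: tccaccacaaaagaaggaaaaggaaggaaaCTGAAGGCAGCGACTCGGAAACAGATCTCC
Srrm4os: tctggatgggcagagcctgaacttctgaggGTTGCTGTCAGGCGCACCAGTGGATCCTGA
Prkag2os1: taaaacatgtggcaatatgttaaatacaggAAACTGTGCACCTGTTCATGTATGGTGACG
Gm12925: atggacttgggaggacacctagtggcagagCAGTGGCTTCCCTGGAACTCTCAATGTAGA
The 1700109K24Rik window joins chr15:77084833-77084862 to chr15:77090555-77090584, both in an intron of Rbfox2. That of Anxa11os joins chr14:25869599-25869628 to chr14:25858558-25858587, on the minus strand. That of Gm15893 joins chr11:88356416-88356445 to chr11:88357932-88357961, that of Gm48239 joins chr14:12374701-12374730 to chr14:12378061-12378090, and that of Rapgef4os3 joins chr2:72248913-72248942 to chr2:72248357-72248386 on the minus strand. That of Srrm4os joins exon 3, chr5:116461774-116461803, to exon 4, chr5:116462395-116462424. That of Prkag2os1 joins chr5:24902809-24902838 to chr5:24903165-24903194, and that of Gm12925 joins chr4:123667718-123667747 to chr4:123668624-123668653.

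Promoter windows of 300 bases, from 250 before to 50 after the annotated start, were taken from RefSeq (GRCm38.p6), which held 625 windows for 498 of the 1211 models. The windows of 2 models that changed in opposite directions in hippocampus are given, 1700109K24Rik at chr15:77084148-77084447 and Prkag2os1 at chr5:24902319-24902618, both on the plus strand, with each CG dinucleotide in capitals.
1700109K24Rik promoter: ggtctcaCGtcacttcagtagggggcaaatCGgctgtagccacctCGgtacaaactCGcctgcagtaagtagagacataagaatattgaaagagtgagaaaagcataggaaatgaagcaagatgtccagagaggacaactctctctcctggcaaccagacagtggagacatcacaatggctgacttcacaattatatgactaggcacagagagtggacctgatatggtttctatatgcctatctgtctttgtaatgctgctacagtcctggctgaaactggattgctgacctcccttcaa
Prkag2os1 promoter: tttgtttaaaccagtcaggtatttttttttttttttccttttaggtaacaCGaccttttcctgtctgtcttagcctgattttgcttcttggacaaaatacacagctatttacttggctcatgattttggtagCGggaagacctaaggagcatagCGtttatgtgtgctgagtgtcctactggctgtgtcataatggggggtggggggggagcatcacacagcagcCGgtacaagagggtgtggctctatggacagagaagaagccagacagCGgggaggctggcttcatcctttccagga
They hold 4 and 5 CG dinucleotides, fewer than the median of 8 over the windows of the antisense models and of 7 over the 32851 windows of all genes. The letters TATAAA, searched on both strands, were in neither window. They were in 8.32% of the windows of antisense models and in 13.6% of all windows. Among 95 windows of models that fell in hippocampus 4.21% held them, and among 12 windows of models that rose 16.7% did. A match is a description of these letters only.

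The 1211 models fall into 4 locations. In 228 every exon lies within introns of the partner, in 304 the model lies inside the partner with some exon bases under partner exons, in 604 some exon lies outside the partner, and 75 have no protein-coding gene across from them. By layout, 532 models lie inside the partner, 332 overlap it head to head, at the 5′ ends, 237 tail to tail, at the 3′ ends, and 35 contain it. The start of 194 models lies within 1000 bases of the partner's start. Models share partners in 119 cases, so the 1136 pairs involve 1076 genes. They are short, with a median exonic length of 1508 bases against 3488 for protein-coding genes, and 142 have 1 exon. Another gene on the same strand overlaps 126 of them, and reads of such models are uncertain. Among models named below, these include Airn, Dlx6os1, Tug1, Zeb2os, Pax6os1, Dnm3os, E130307A14Rik, Gm40578, Gm16008 and Tmem147os.

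How often a model was detected varied with how much of it lies under exons of the other strand. Of 76 annotated antisense models whose exons lie wholly under exons of the other strand, 64 (84.2%) were at 0 in all 12 libraries and 3 (3.95%) reached a mean of 10. Of 1220 models with no exon base under the other strand, 280 (23.0%) were at 0 and 353 (28.9%) reached 10. Models with up to 25% or with 25 to 50% of their exon bases covered reached 10 in 54.2% and 55.7% of cases. The sources used here do not say whether counting used strand, and without it reads from a gene and its antisense partner cannot be told apart. Values below therefore belong to the exon bases of each model as counted by the authors.

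**Figure D1:**
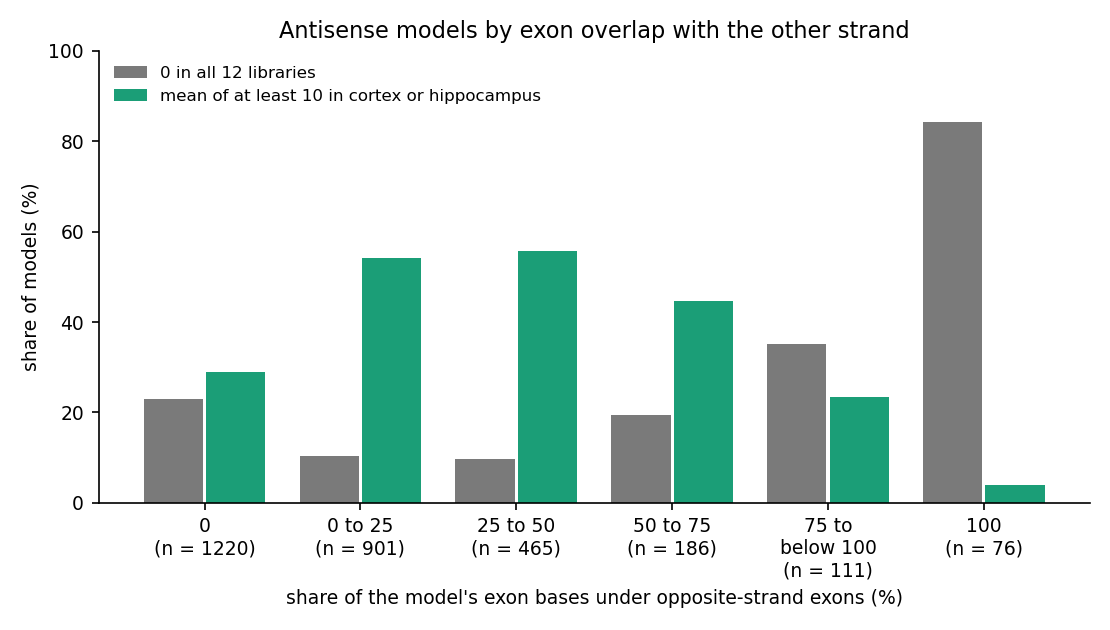
Share of the 2959 annotated antisense models, in percent, that were at 0 in all 12 libraries (grey bars) or reached a mean normalized count of 10 in cortex or hippocampus (green bars), by the share of their exon bases under exons of the opposite strand; n is the number of models. The grey bar is highest, at 84.2%, where exons are wholly covered.

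Libraries held 68424934 to 86639113 reads, as recovered from the steps of the values, which is uncertain for wild-type cortex libraries 1 and 2. Tert was at 105 to 241 normalized counts in the 3 wild-type cortex libraries and at 0 in the 3 knockout ones, at 128 to 184 in wild-type hippocampus, and at 0, 6.31 and 0 in knockout hippocampus. Wild-type cortex library 2 stood apart from its group, with the lowest Tert value and lower counts for many models. All genes of the marker lists were detected; hippocampal field markers summed to 91255 to 119918 in hippocampus and 18195 to 20672 in cortex, in tables scaled separately. In cortex, 8 of 10 striatal neuron markers rose, their sum being 18264 to 18885 in wild type and 40196 to 64301 in knockout. The meningeal sum in cortex was 42569.9 to 58120.1 in wild type against 19807 to 34878 in knockout. Only 1 of 8 meningeal markers was called there, a fall. Ptgds made the largest part of that sum, with means of 40462 in wild type and 22165 in knockout. In hippocampus the choroid plexus sum was 12731 to 351675 in wild type and 9369 to 18512 in knockout, and 0 of 8 choroid plexus markers were called. Ttr made the largest part of that sum, with means of 165171 in wild type and 9108 in knockout. All 4 microglia, 6 of 10 interneuron, 3 of 5 oligodendrocyte and 2 of 4 astrocyte markers rose in hippocampus, with 1 rise and 3 falls among 8 hippocampal field markers. For comparison, 1.28% of all genes tested rose and 0.661% fell in cortex, and 14.1% rose and 15.1% fell in hippocampus. These are bulk samples, in which fewer cells of a type and less RNA per cell cannot be told apart, and the part of these markers in the results below was not tested.

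In hippocampus, antisense models were lower in the knockout far more often than higher. Of 1118 models tested with limma, 199 (17.8%) fell and 25 (2.24%) rose at an adjusted p below 0.05, while over all 22337 genes tested 15.1% fell and 14.1% rose. The median log2 change of the models was -0.22, against 0.02 for all genes, but with quantile normalization the models' median was 0.03 and that of all genes 0.09. The split under that scaling was 143 lower and 58 higher, and all 143 of the lower ones were among the 199. The shares of all genes called under that scaling are not given here, so this split stands without that comparison. A negative change was found for 763 models (68.2%) against 48.0% of all genes. A fall of at least 1 on the log2 scale was called for 141 models and a rise of that size for 9. The median of the falls was -1.49, with quartiles of -2.33 and -0.88. Without wild-type library 3 the number called was 124 in place of 224, and without knockout library 2 it was 149.

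The genotype groups did not overlap for 396 models (35.4%), against 45.8% of all genes, and these included all 224 called. The levels of the models were low, with a median of 40.3 normalized counts. A model could pass the filter through 1 genotype: 120 tested models had a knockout mean under 10 and 25 a wild-type mean under 10. Of the 199 falls 58 had such a knockout mean, and of the 25 rises 2 had such a wild-type mean. With a mean of at least 50, 98 of 483 models fell and 15 rose, and with at least 100, 66 of 299 fell and 14 rose. At these levels the median changes were -0.14 and -0.13. The shares of all genes called at these levels are not given here.

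Within bands of mean level the models lay below protein-coding genes. Their median change was -0.33 for means of 10 to 20, -0.26 for 20 to 50, -0.21 for 50 to 100, -0.15 for 100 to 200 and -0.08 from 200 up, where protein-coding genes had -0.20, -0.16, -0.12, -0.14 and 0.05. With quantile normalization the models' medians in these bands were 0.11, 0.02, -0.02, 0.02 and 0.01, so the direction of 4 bands turned, and those of protein-coding genes were 0.24, 0.13, 0.08, 0.03 and 0.08. Other noncoding classes also had negative medians, -0.37 for 103 sense-intronic models with 36 falls, -0.29 for 1117 TEC models, unspliced transcripts still to be tested by experiment, with 327 falls, and -0.14 for 945 lincRNAs with 114 falls. These falls are 35.0%, 29.3% and 12.1% of the classes, against 15.1% of all genes tested. The share of all normalized counts that fell on antisense models was 0.218%, 0.211% and 0.213% in the wild-type hippocampus libraries and 0.180%, 0.174% and 0.179% in the knockout ones. Every knockout library was below every wild-type library in this share.

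Models lying inside their partner made up most of the falls. Among 209 tested models with exons only in partner introns 51 fell and 8 rose, with a median of -0.27. Among 278 inside the partner with some exon overlap 72 fell and 4 rose, with a median of -0.34. Among 563 with an exon outside the partner 73 fell and 11 rose, with a median of -0.17, and among 68 with no partner 3 fell and 2 rose, with a median of -0.12. By layout, 27 of 308 head-to-head models fell and 6 rose, 38 of 221 tail-to-tail models fell and 5 rose, and 8 of 34 that contain their partner fell and none rose. Of 983 models with several exons 183 fell, and of 135 with 1 exon 16 fell. These shares were not tested against each other.

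**Figure D2:**
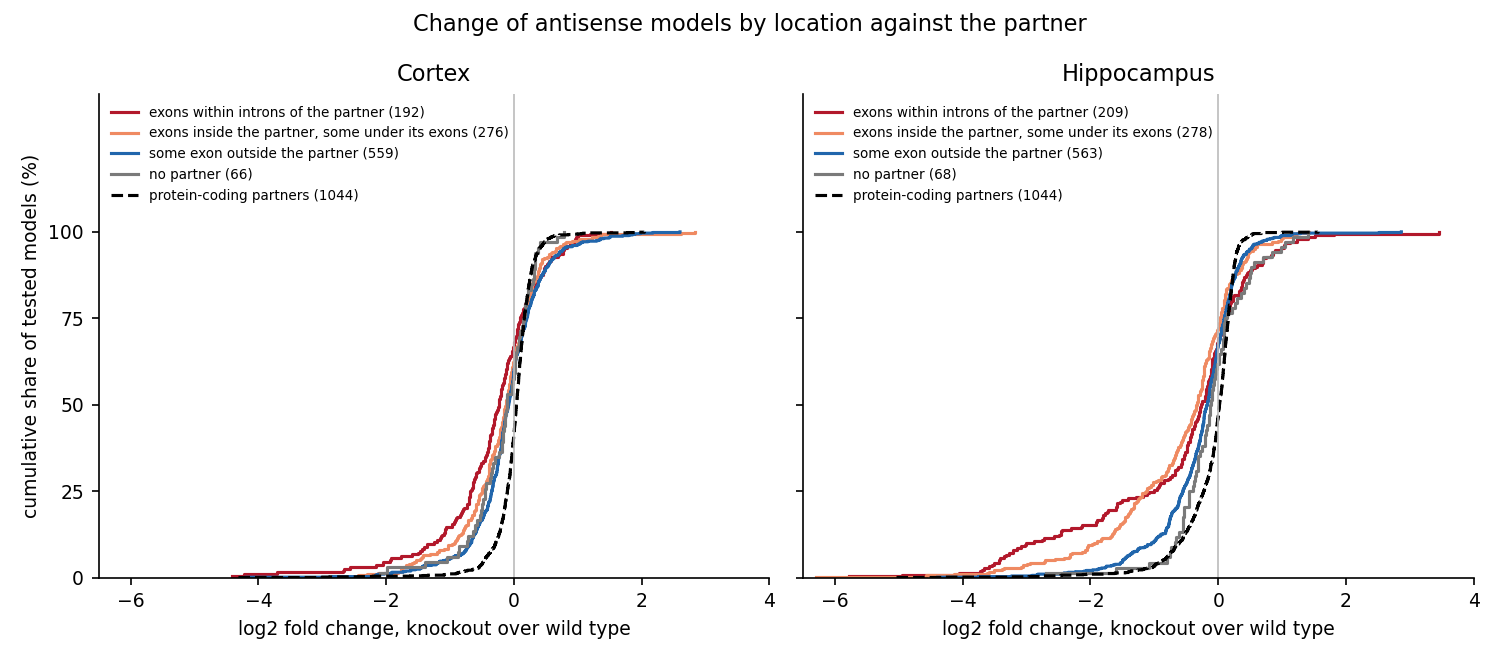
Cumulative share of tested models, in percent, against the log2 fold change of knockout over wild type in cortex (left) and hippocampus (right), by location against the partner; the dashed line is the protein-coding partners, each counted once, and the number in each class is in the legend. In hippocampus the 2 classes that lie inside the partner are shifted to the left, with medians of -0.27 and -0.34, against 0.02 for partners, while with quantile normalization the median over all antisense models is 0.03.

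The 8 largest called falls in hippocampus, among models with a mean of at least 50, were all of models that lie inside their partner. Gm15893 (chr11:88356291-88363947, plus strand) has its exons in introns of Msi2, which encodes a Musashi RNA-binding protein. It was at 195, 167 and 172 normalized counts in the wild-type libraries and at 14.6, 10.8 and 18.4 in the knockout libraries, a log2 change of -3.55 ± 0.24 (SE) with a limma adjusted p of 6.91e-05. Every wild-type library was far above every knockout library. Msi2 itself was at 7086, 7104 and 7081 and 6581, 5736 and 6110.2, a fall of -0.21 on the log2 scale, and the ratio of model to partner changed by -3.34 ± 0.22 (SE).

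1700109K24Rik (chr15:77084398-77096314, plus strand) lies in introns of Rbfox2, a regulator of alternative splicing. Its values were 229.9, 254 and 240.2 in wild-type and 28.3, 16.2 and 21.3 in knockout hippocampus, and the change was -3.43 ± 0.22 (SE), adjusted p = 6.18e-05 (limma). The groups were far apart, with little spread among wild-type libraries. Rbfox2 fell by much less, -0.22 ± 0.05 (SE), from 21698, 24288 and 22961 to 20374, 18979 and 19953. The spliced sequence printed above for 1700109K24Rik is thus that of a model whose counts fell by more than those of the gene around it, with a ratio change of -3.22 ± 0.20 (SE) and an adjusted p of 7.23e-05 in limma.

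Anxa11os (chr14:25856777-25870266, minus strand) lies inside Anxa11, which encodes a calcium-dependent membrane-binding annexin, with 113 exon bases under its exons. Values of 126, 110.2 and 151 in wild type stood against 10.7, 12.6 and 11.6 in knockout, a change of -3.35 ± 0.22 (SE), adjusted p = 6.86e-05 (limma). The knockout libraries lay close together and below all wild-type ones. Anxa11 moved the other way, from 5086, 5411 and 4992 to 6021, 6499 and 5792, and its rise of 0.24 ± 0.05 (SE) was called at an adjusted p of 0.0148 (limma).

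Rapgef4os3 (chr2:72244965-72248975, minus strand) lies in introns of Rapgef4, a Rap exchange factor activated by cyclic AMP. It was at 271, 292 and 316 in wild-type and 45.9, 37.9 and 64.8 in knockout hippocampus, a change of -2.57 ± 0.21 (SE), adjusted p = 0.000145 (limma). All knockout libraries were below all wild-type libraries, while Rapgef4, at 33161, 38401 and 35732 and 41402, 39091 and 40439, was not called. The same gene holds 2 further antisense models, named here after their values were seen. Rapgef4os2 was at 95.6, 83.5 and 88.9 and 96.7, 104 and 87, and Rapgef4os1 at 11.2, 21.4 and 12.7 and 19.5, 8.12 and 5.8. Neither was called, and their groups overlapped. Of 51 partners with several tested models, 13 had models that fell beside models that did not fall. Over all tested models 17.8% fell, so unrelated models would differ in this way too. The number 13 was not compared with that.

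Of the other 4, AC129188.1, in introns of Spindoc, was at 143, 170.2 and 141 against 17.6, 13.5 and 13.5, a change of -3.27 ± 0.21 (SE). AC132148.1, in introns of Dagla, the lipase that makes an endocannabinoid, was at 192, 254 and 221 against 17.6, 26.2 and 29.98, a change of -3.15 ± 0.23 (SE). Gm49163, in introns of Flywch1, was at 355, 361 and 296 against 65.4, 39.7 and 47.4, a change of -2.73 ± 0.20 (SE). In these 3 models the highest knockout library was far below the lowest wild-type library, and none of the 3 partners was called. Gm48747, inside Trim9, a neuronal ubiquitin ligase, was at 105, 87.8 and 86.8 against 18.5, 17.1 and 10.6, a change of -2.55 ± 0.27 (SE), and Trim9 was not called. The adjusted p values of the 4 ran from 5.97e-05 to 0.000502 (limma).

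Some models were at 0 in every knockout hippocampus library, and 4 are named after their values were seen. In hippocampus these 4 passed the filter on the mean through their wild-type libraries alone. The bounds below therefore describe models selected for a high wild-type value. Gm11201, inside Ksr1, a scaffold of the MAP kinase cascade, was at 68.2, 81.3 and 84.6 in wild type, which makes the knockout level at least 27.4-fold lower, with 3 reads a library as the floor. Ppp2r2cos, in introns of Ppp2r2c, a regulatory subunit of a serine and threonine phosphatase, was at 67.1, 52.4 and 44.4, at least 19.2-fold lower in knockout. 1700125H03Rik, in introns of Csgalnact1, an enzyme of chondroitin sulfate synthesis, was at 24.4, 36.4 and 29.6, at least 10.6-fold lower in knockout. These 3 had reads in all wild-type libraries, and so did Far1os, inside Far1, at 24.4, 28.9 and 16.9, at least 8.23-fold lower in knockout. Ksr1 and Ppp2r2c were not called, while Csgalnact1 changed by -0.28 ± 0.08 (SE) and Far1 by -0.23 ± 0.05 (SE), both falls.

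Rises were fewer and smaller, and the rule names 8. Gm3235, in introns of Fto, an RNA demethylase, was at 49.9, 15 and 28.6 in wild-type and 83, 90.2 and 134 in knockout hippocampus, a change of 1.81 ± 0.42 (SE), adjusted p = 0.0157 (limma). Its wild-type libraries varied widely but all lay below the knockout ones, and Fto rose by 0.28 ± 0.04 (SE). Without wild-type library 3 or knockout library 3 the adjusted p of Gm3235 was 0.0537 or 0.063 (limma). Prkag2os1 (chr5:24902569-24906850, plus strand), inside Prkag2, a regulatory subunit of the AMP-activated kinase, was at 109, 103 and 99.5 against 199, 274 and 236, a change of 1.17 ± 0.15 (SE), adjusted p = 0.00118 (limma). Every knockout library was well above the highest wild-type value, and Prkag2 was not called.

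Gm13375, which has no protein-coding partner, was at 615, 642 and 618 against 911, 848 and 897, a rise of 0.50 ± 0.06 (SE). Gm40578, tail to tail with Tnfaip2, was at 211, 218 and 193 against 308, 289.5 and 297, a rise of 0.52 ± 0.10 (SE). Both had tight groups that did not overlap. The other 4 were Gm29100 across from Twist2, a transcription factor of mesenchyme, with 0.68 ± 0.18 (SE), A330093E20Rik across from the potassium channel gene Kcnn2, with 0.64 ± 0.18 (SE), Gm14286, with 0.48 ± 0.12 (SE), and Gm26592 inside Icam5, a neuronal adhesion molecule, with 0.46 ± 0.10 (SE). Their adjusted p values ran from 0.0135 to 0.0343 (limma), and each was above 0.05 when certain single libraries were left out. Gm29100 reached 0.103 without knockout library 2 and was also lost without wild-type library 1 (0.065) or 3 (0.0998) or knockout library 1 (0.057) or 3 (0.0576). A330093E20Rik reached 0.0947 without knockout library 3 and was lost without wild-type library 2 (0.0639) or 3 (0.0852) or knockout library 2 (0.0684), as well as with no filter on low values (0.0577), with no variance trend (0.0576) and with the trend along exonic length removed (0.0529). Gm14286 was lost without wild-type library 3 (0.0817) or any 1 knockout library (0.0776, 0.0508 and 0.0534), and Gm26592 without knockout library 2 (0.0563).

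**Figure D3:**
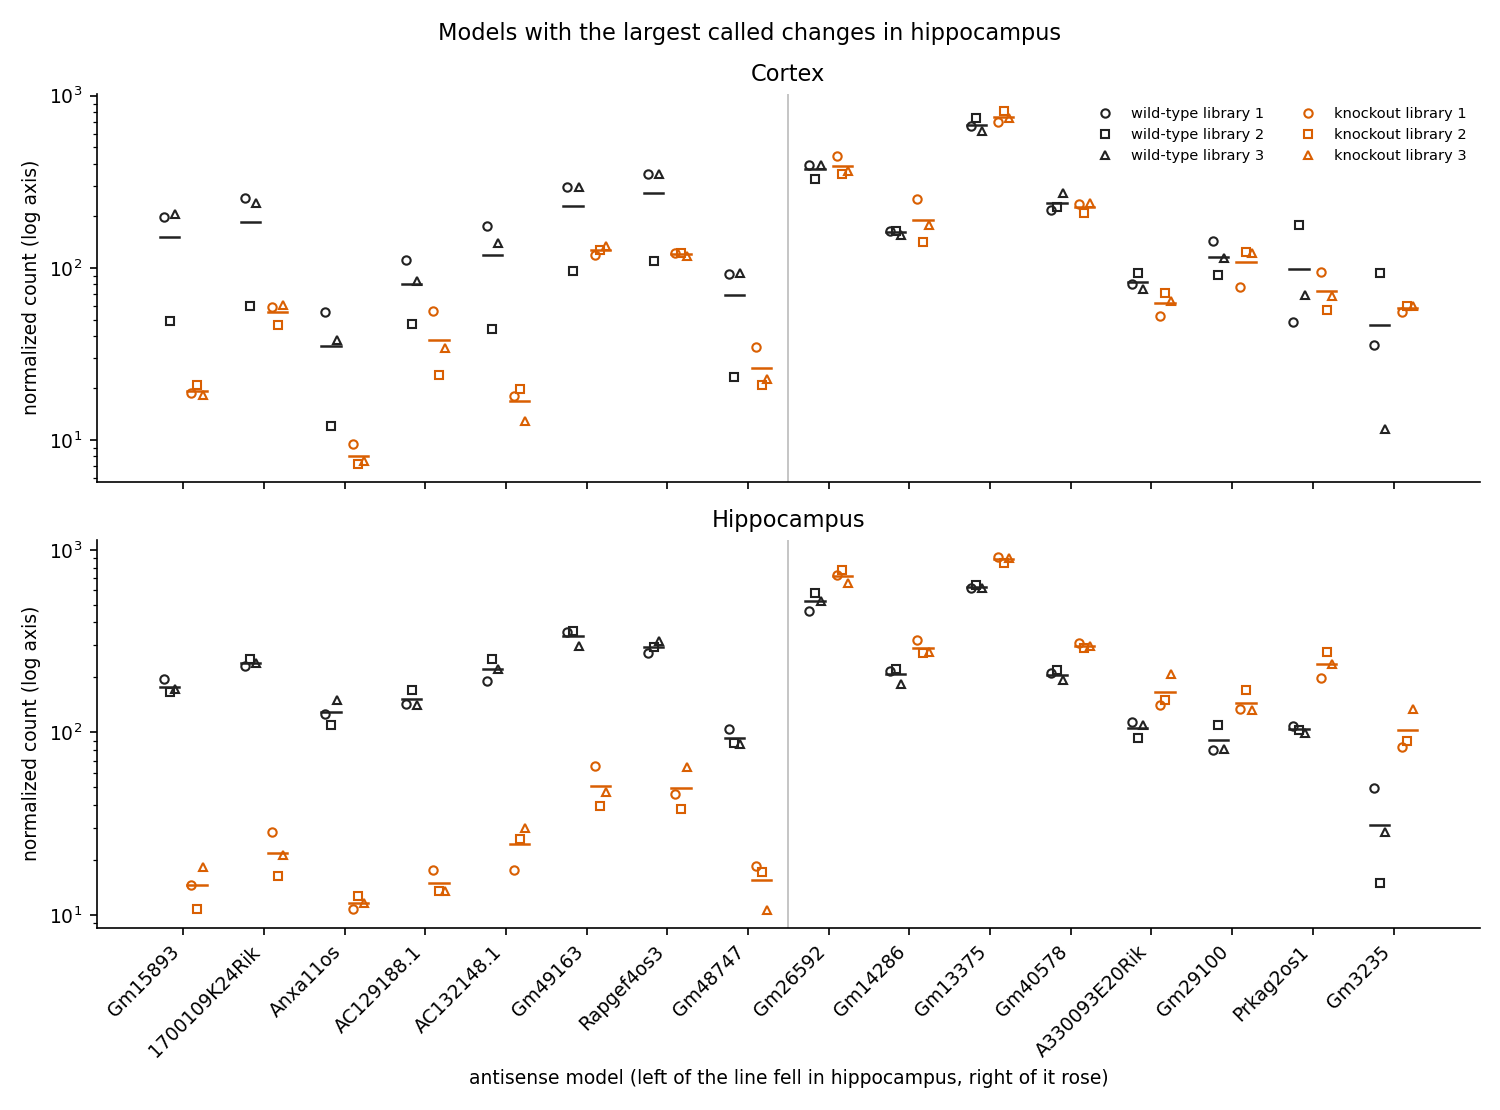
Normalized counts (log axis) of the 8 models with the largest called falls and the 8 with the largest called rises in hippocampus, among models with a mean of at least 50 there and groups that do not overlap, in cortex (top) and hippocampus (bottom); open symbols are single libraries, black for wild type and orange for knockout, and short lines are group means. In hippocampus the groups of all 16 models are separate, while in cortex the wild-type library 2 of models such as 1700109K24Rik (60.1, against 256 and 239 in the other two) lies near the knockout libraries.

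The partners did not share the shift of the models. Of 973 distinct partners tested in hippocampus, 206 fell and 192 rose, with a median of 0.02. Across 1025 pairs, which share libraries and normalization, Pearson's r between the 2 changes was 0.06. Where the model fell, the partner fell in 55 pairs, rose in 32 and was not called in 102. Where the model rose, the partner rose in 9 pairs, fell in 3 and was not called in 11. In wild-type level per kilobase of exon, the models stood at a median of 4.78% of the partner level when wholly intronic, 6.03% when inside with exon overlap, and 7.77% when partly outside.

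The ratio of model to partner was tested in each library over all 3598 opposite-strand pairs of any gene type with a protein-coding gene. For antisense models 175 of 1025 ratios were lower in knockout hippocampus and 47 higher, against 13.6% lower and 10.5% higher over all pairs, with a median change of -0.23. Lower ratios were called for 43 of 202 intronic models, 66 of 276 inside with exon overlap and 66 of 547 partly outside, and higher ratios for 11, 9 and 27. The number of ratios called was 142 in place of 222 when only partners with shared exon bases were used, and 129 without wild-type library 3.

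**Figure D4:**
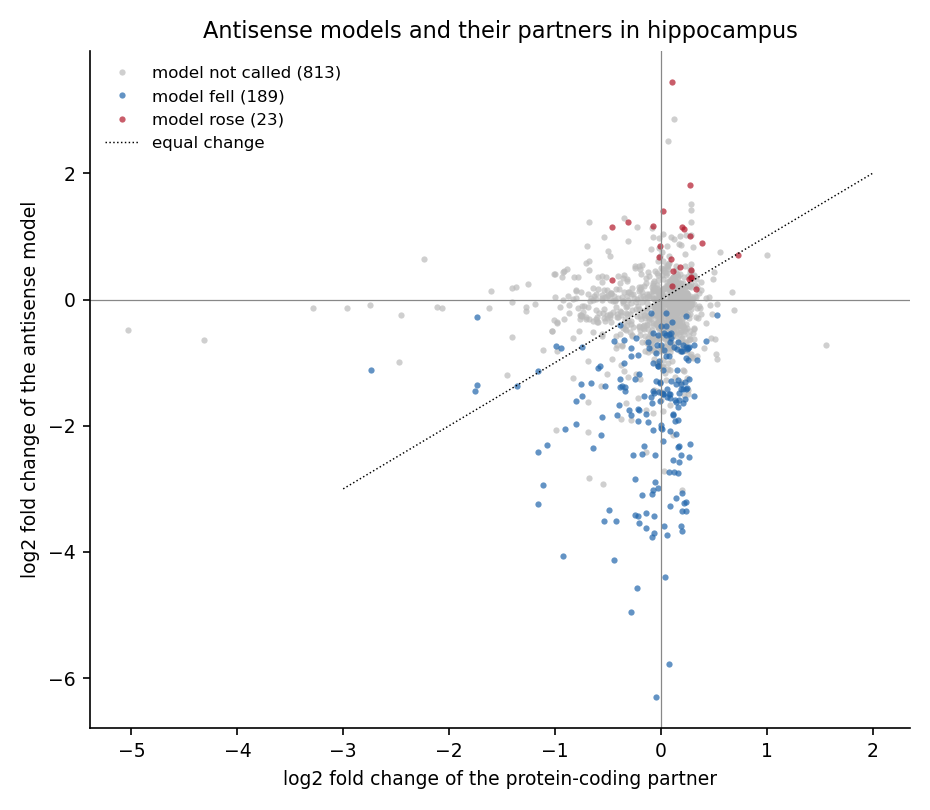
Log2 fold change in hippocampus of 1025 antisense models (vertical axis) against that of the protein-coding gene on the opposite strand (horizontal axis); each point is 1 pair, coloured by the call of the model, and the dotted line marks equal change. The models that fell spread far below the line and the partner was not called for 102 of them.

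The lower ratio with the smallest p was that of Gm48239 (chr14:12374585-12384729, plus strand), in introns of Cadps, which primes dense-core vesicles for release. Gm48239 was at 1528, 1614 and 1481 in wild-type and 454, 404 and 460.3 in knockout hippocampus, and Cadps at 17773, 21319 and 19282 and 20749, 21383 and 21116. The model fell in every knockout library to under the lowest wild-type value, Cadps was not called, and the ratio changed by -1.93 ± 0.09 (SE), adjusted p = 4.37e-05 (limma). B230334C09Rik, 1 long exon tail to tail with Lrrc40, fell from 12617, 14719 and 13831 to 8588, 8433 and 9084 while Lrrc40 rose from 2569, 2695 and 2565 to 3398, 3524 and 3572. Here the model and its partner were called in opposite directions, -0.66 ± 0.06 (SE) and 0.42 ± 0.04 (SE), with a ratio change of -1.08 ± 0.06 (SE). The other 4 of the smallest p were 1700109K24Rik, Anxa11os, Gm15893 and AC129188.1, described above.

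Among the 47 pairs with a higher ratio the partner fell in 38, rose in 1 and was not called in 8, and the model rose in 10, fell in 2 and was not called in 35. Among the 175 with a lower ratio the partner fell in 29, rose in 50 and was not called in 96, and the model fell in 149 and was not called in 26. AC061963.1, head to head with Kmt2a, a histone methyltransferase, was at 136, 140.2 and 145 in wild-type and 155, 179 and 147 in knockout hippocampus and was not called, while Kmt2a fell from 21642, 24811 and 23667 to 8860.0, 8907 and 8659. The ratio changed by 1.59 ± 0.13 (SE), adjusted p = 0.000231 (limma). Gm12925, in introns of Macf1, a giant linker of actin and microtubules, was at 95.6, 116 and 114 and 136, 161 and 135. Every knockout library of Gm12925 was above every wild-type one, with a change of 0.41 ± 0.15 (SE) and an adjusted p of 0.0753 in limma, which was not called. Macf1 fell from 36811, 37221 and 37276 to 18669, 18514 and 18504 and the ratio changed by 1.41 ± 0.15 (SE), or by 0.60 (adjusted p 0.0343 in limma) with the trend along exonic length removed. E130307A14Rik, across from Traf3ip2, an adaptor of interleukin signalling, was at 2286, 2268 and 2261 and 2303, 2389 and 2273, with a ratio change of 0.83 ± 0.10 (SE).

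In a pair of cases the model fell, but by less than its partner. Gm16008, which contains the TNF receptor family gene Tnfrsf18, was at 314, 332 and 333 in wild-type and 192, 143 and 125 in knockout hippocampus, and Tnfrsf18 at 252, 283 and 294 and 47.8, 36.1 and 38.7. Tmem147os, which contains Gapdhs, a sperm form of a glycolytic enzyme, was at 916, 1012 and 900.4 and 841, 722 and 776, and Gapdhs at 145, 159 and 159 and 60.5, 37.9 and 41.6. Both partners were lower in all knockout libraries, and the ratio changes were 1.62 ± 0.15 (SE) and 1.46 ± 0.18 (SE). Other genes on the same strand overlap both models. Prkag2os1 completed the 6, with 1.24 ± 0.15 (SE).

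Several antisense RNAs known from other work were measured and are named after their values were seen. Airn, which overlaps the 5′ end of Igf2r, was at 89.5, 111 and 81.5 in wild-type and 49.8, 61.3 and 55.1 in knockout hippocampus, a fall of -0.75 ± 0.19 (SE), adjusted p = 0.0222 (limma). Igf2r fell by -0.75 ± 0.05 (SE), from 4212, 4420.2 and 4300.0 to 2539, 2691 and 2471. The pair thus moved by like amounts, with a ratio change of 0.00 ± 0.18 (SE). The call of Airn was lost without wild-type library 2 (0.0513) or knockout library 1 (0.0695) or 3 (0.0618), and with quantile normalization (-0.55, adjusted p 0.0823).

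Dlx6os1, which contains Dlx6, a homeobox gene of interneurons, was at 943, 939 and 1003 in wild-type and 775, 802 and 872 in knockout hippocampus, a fall of -0.24 ± 0.07 (SE), adjusted p = 0.0322 (limma). Dlx6 rose by 0.53 ± 0.11 (SE), from 190.3, 223 and 224 to 289, 330.1 and 304. Model and partner were called in opposite directions, and the ratio changed by -0.77 ± 0.12 (SE), adjusted p = 0.00349 (limma). Other genes on the same strand overlap Dlx6os1, so its reads are uncertain. The call of Dlx6os1 itself was lost without wild-type library 3 (0.124) or knockout library 1 (0.102) or 2 (0.101), with quantile normalization (0.0793) and with no variance trend (0.0586). Interneuron markers, on which Dlx6 is listed, had a summed level of 39003 to 46054 in wild-type and 52410.0 to 54048 in knockout hippocampus, and their part in the result was not tested.

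Prox1os, head to head with Prox1, a transcription factor of dentate granule cells, was at 348, 432 and 367 in wild-type and 405, 369.8 and 368 in knockout hippocampus, while Prox1 fell from 11255, 13729 and 12734 to 7766, 8137 and 8229.8. The groups of Prox1os overlapped, those of Prox1 did not, and the ratio changed by 0.64 ± 0.10 (SE), adjusted p = 0.00419 (limma). Zeb2os lies inside Zeb2, with 653 exon bases under its exons, and other genes on the same strand overlap it. It was at 138, 154 and 134 in wild-type and 151, 148 and 161 in knockout hippocampus and was not called. Its ratio to Zeb2 changed by 0.58 ± 0.13 (SE). Grin1os, inside the NMDA receptor gene Grin1, was at 2190.5, 2309 and 2087 and 2177, 2014 and 2024, with a ratio change of -0.24 ± 0.07 (SE), adjusted p = 0.0348 (limma). Tug1, an abundant nuclear RNA head to head with Morc2a, was at 7409, 7887 and 7999 and 6559, 6362 and 7217, a fall of -0.21 ± 0.06 (SE), adjusted p = 0.0281 (limma). That call of Tug1 was lost without wild-type library 3 (0.111) or knockout library 1 (0.0906) or 2 (0.103), with no filter on low values (0.0534) and with no variance trend (0.0863). Once the exonic length trend was taken out, Tug1 changed by -0.0059, with an adjusted p of 0.944 (limma). Emx2os, Dlx1as, Dnm3os and Pax6os1 were not called in hippocampus, with changes of 0.12, 0.08, 0.35 and 0.33.

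The highest levels per kilobase of exon belonged to few models. Gm15564, across from Parp9, had a mean of 2529 per kilobase in hippocampus and fell there, from 3583, 2761 and 2716 to 866, 981 and 1552, a change of -1.45 ± 0.21 (SE). In cortex it was at 6468, 3204 and 4.78 in wild type and 2679, 2647 and 3769 in knockout, so that wild-type library 3 was almost without it, and it was not called. 4933431E20Rik had 1403 per kilobase in hippocampus, at 8609, 10112 and 9362 and 9985, 9774 and 9579, while its partner Eps8l3 was at 0 in every cortex library and reached at most 9.67 in hippocampus. The overlap of its groups left it uncalled. B230334C09Rik had 1256, Gm13375 884 and 2810468N07Rik, head to head with Sox8, 858 per kilobase in hippocampus. 2810468N07Rik rose by 0.17 ± 0.05 (SE) there, a call lost without wild-type library 1 (adjusted p 0.0601) or 3 (0.0962) or knockout library 1 (0.104) or 3 (0.0831) in limma. That rise of 2810468N07Rik was also not called by edgeR (0.0515) or DESeq2 (0.0554), with no variance trend (0.0691) or with the trend along exonic length removed (0.081). Gm2415 was among the 5 highest in cortex, with 843 per kilobase, and was not called in either tissue.

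In cortex 6 of 1093 tested models were called, 5 falls and 1 rise, where 0.661% of all genes fell and 1.28% rose. The median change was -0.13, against -0.01 for all genes, and 61.7% of models were below 0 against 52.1% of all genes. The direction of the median was the same with quantile normalization, which brought it to -0.01. The groups did not overlap for 206 models (18.8%), against 28.3% of all genes. Among partners, 8 of 951 fell and 21 rose.

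Srrm4os, tail to tail with Srrm4, the neuronal splicing activator, fell in cortex from 382, 204 and 432 to 83.7, 62.1 and 67.4, a change of -2.18 ± 0.29 (SE), adjusted p = 0.0212 (limma). The highest knockout library was below the lowest wild-type library. Srrm4, at 4986, 3532 and 4803 and 5914, 5741 and 5639.7, was not called, and the ratio changed by -2.57 ± 0.21 (SE), adjusted p = 0.00624 (limma). In hippocampus Srrm4os fell too, from 387, 351 and 378 to 58.6, 67.6 and 75.4, a change of -2.46 ± 0.13 (SE), and there Srrm4 fell by -0.27 ± 0.06 (SE).

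2410021H03Rik, in introns of the membrane skeleton gene Epb41l3, was at 108, 42.1 and 94.7 in wild-type and 6.58, 14.5 and 13.9 in knockout cortex, a fall of -2.67 ± 0.46 (SE). Gm44199, in introns of Brk1, a subunit of the WAVE actin regulator, was at 139, 134 and 159 and 72.4, 50.7 and 72.8, a fall of -1.14 ± 0.19 (SE). 5031415H12Rik, in introns of Dlgap1, a postsynaptic scaffold gene, was at 256, 261 and 284 and 174, 150.1 and 175, a fall of -0.68 ± 0.12 (SE). In all 3 the groups did not overlap, and all 3 fell in hippocampus as well, by -3.35, -1.50 and -0.42. A930024E05Rik, head to head with the histone demethylase gene Kdm2b, was at 225, 237 and 207 and 135, 142 and 128, a fall of -0.72 ± 0.12 (SE), but in hippocampus it was at 430.4, 463 and 385 and 424, 395 and 485 with overlapping groups. The rise was of Gm11738, inside the dynein gene Dnah17, at 5.94, 9.02 and 12.4 and 34.8, 125 and 73.8, a change of 2.83 ± 0.50 (SE) from low levels. Gm11738 passed the filter on the mean in cortex through its knockout libraries.

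The 6 cortex calls depended on every cortex library except wild-type library 2. Leaving out any single cortex library other than wild-type library 2 took every one of the 6 above 0.05 in limma, to adjusted p values of 0.0612 to 0.211, and left 0 or 1 of the models called. With all libraries, all but Srrm4os were also lost with no filter on low values (0.0625 to 0.073), all 6 with no variance trend (0.0527 to 0.101), and 5031415H12Rik (0.0549) and A930024E05Rik (0.0533) with quantile normalization. Leaving out wild-type library 2 gave 118 calls in 1089 models, 99 falls and 19 rises, against 10.4% of all genes that fell and 11% that rose, with a median of -0.18. In that set 33 of 188 intronic models fell and 3 rose, 23 of 279 inside with exon overlap fell and 6 rose, 37 of 556 partly outside fell and 10 rose, and 6 of 66 with no partner fell. The ratio to the partner was called for 2 of 997 models with all libraries, against 0.257% of all pairs: Srrm4os, and AC132148.1 against Dagla with -2.94 ± 0.41 (SE), both lower. Without wild-type library 2 it was called for 85 of 992, 68 lower and 17 higher, against 5.53% lower and 4.56% higher over all pairs. The AC132148.1 ratio was above 0.05 without any one of the other 5 libraries (0.138 to 0.275), with no filter (0.063), quantile normalization (0.0648), no variance trend (0.113) or the length trend removed (0.0533), and the Srrm4os ratio without wild-type library 1 (0.0517) or 3 (0.0541) or knockout library 2 (0.109) or 3 (0.112).

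Library 2 of wild-type cortex lay nearer to the knockout libraries than to its own group for many of these models. The median deviation of tested models from their own cortex mean was 0.14 and 0.15 on the log2 scale in wild-type libraries 1 and 3, -0.03 in library 2, and -0.02, -0.07 and -0.03 in the knockout libraries. 1700109K24Rik was at 256, 60.1 and 239 in wild-type and 59.3, 46.6 and 61 in knockout cortex, and Gm15893 at 198, 49.1 and 207 and 18.8, 20.7 and 18.2. Rapgef4os3 was at 351, 109 and 353 and 122, 122 and 118. In all 3 the second wild-type value is well below the other two, and for Rapgef4os3 it is below every knockout value. With all libraries the changes were -1.47, -2.66 and -0.98, and none of them was called. Without library 2 they were -2.14, -3.33 and -1.54, with adjusted p values of 0.000133, 3.61e-05 and 7.26e-05 (limma). These 3 models are shown here for their low values in library 2. Small p values without that library follow from this choice and add no support for a fall in cortex.

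The rule also took pairs with the smallest ratio p in cortex that were not called. Lower ones were Gm15893 (-2.84 ± 0.46 (SE)), 5031415H12Rik (-0.84 ± 0.14 (SE)), Pcsk2os2 in the prohormone convertase gene Pcsk2 (-1.28 ± 0.24 (SE)) and Gm16299 in Rbm20 (-1.67 ± 0.35 (SE)). Higher ones were Lrp8os2 in the reelin receptor gene Lrp8 (1.14 ± 0.27 (SE)), Gm16008 (0.74 ± 0.20 (SE)), Gm26982 across from the ghrelin gene Ghrl (2.58 ± 0.79 (SE)), Tmem147os (0.78 ± 0.25 (SE)), Gm49012 across from the melanopsin gene Opn4 (1.58 ± 0.54 (SE)) and Gm15991 in Psd3 (0.65 ± 0.23 (SE)). Their adjusted p values lay between 0.0559 and 0.274 (limma). In hippocampus the ratio of Gm26982 to Ghrl changed by 2.83 ± 0.36 (SE), adjusted p = 0.00137 (limma), with Gm26982 at 292, 277 and 275 and 257, 262 and 249 and Ghrl at 70.2, 118 and 111 and 14.6, 15.3 and 6.77. Ghrl was far lower in all knockout libraries while Gm26982 was not called.

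The direction in cortex mostly followed that in hippocampus. Over 1000 models tested in both tissues, which share annotation and counting and perhaps animals, Pearson's r of the 2 changes was 0.45, against 0.38 over 21282 genes. Without cortex wild-type library 2 it was 0.57 over 985 models, and the value over all genes without that library is not given here. Of 183 models that fell in hippocampus and were tested in cortex, 148 (80.9%) were below 0 there, with a median of -0.42, and 4 fell there. Over all genes that fell in hippocampus 66.4% were below 0 in cortex, with a median of -0.12. Without library 2, 73 of the 183 (39.9%) fell in cortex and none rose, with a median of -0.69. Over all genes that fell in hippocampus 1480 of 3240 (45.7%) fell there without library 2 and 111 rose, with a median of -0.27. In 165 of the 183 library 2 was below both other wild-type libraries, and in 135 it was at or below the highest knockout library, against 21 for library 1 and 39 for library 3. Leaving it out thus raises the wild-type mean of these models. The larger falls without library 2 follow from that and add no support for a fall in cortex.

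**Figure D5:**
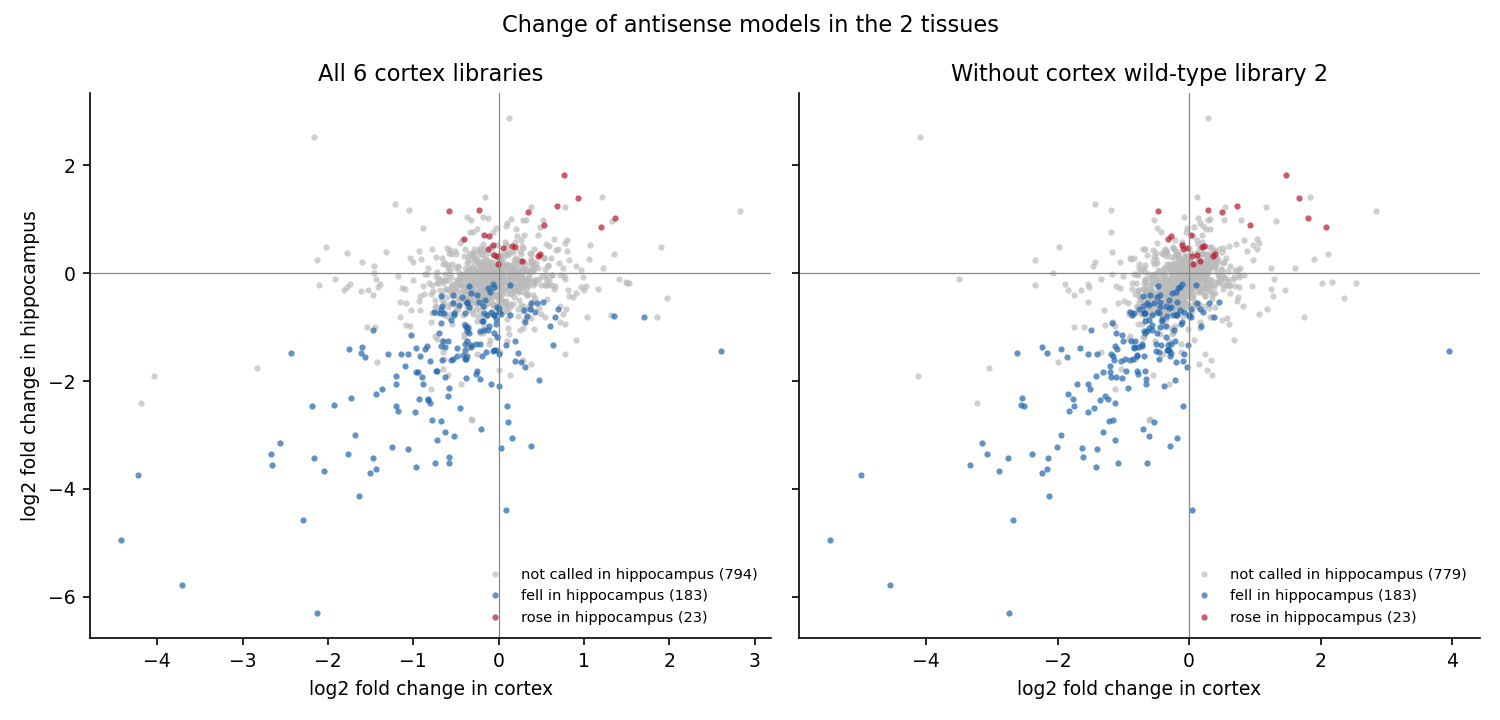
Log2 fold change of antisense models in hippocampus (vertical axis) against cortex (horizontal axis), with all 6 cortex libraries (left) and without cortex wild-type library 2 (right); each point is 1 model, coloured by its call in hippocampus. Models that fell in hippocampus lie mostly left of 0 in cortex, with a median of -0.42 on the left and -0.69 on the right. The library left out on the right was low for most of these models, so the lower median follows from leaving it out.

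The knockout effect itself differed between tissues for 13 of 1000 models, 11 with the lower and 2 with the higher effect in hippocampus, against 3.02% of all genes. That number was 20 to 32 without any one wild-type cortex library and 2 to 8 without any other single library. The 5 with the smallest p were named by the rule. 1700126G02Rik, inside the ethanolamine kinase gene Etnk1, was at 64.4, 35.1 and 82.3 in wild-type and 30.1, 32.1 and 39.6 in knockout cortex, and at 75.3, 86.7 and 92.1 and 6.83, 8.12 and 4.83 in hippocampus. The cortex groups overlapped and the hippocampus groups were far apart. Gm13584, in introns of the forebrain transcription factor gene Lhx2, was at 13.9, 12 and 23.9 and 17.9, 18.6 and 15 in cortex and at 36.6, 45 and 41.3 and 7.81, 6.31 and 5.8 in hippocampus. AC110206.1, in introns of the glycerolipid synthesis gene Gpam, was at 125, 58.1 and 109 and 115, 120.0 and 109 in cortex and at 168, 153 and 144 and 33.2, 48.7 and 58 in hippocampus. Gm16333, in introns of the potassium channel subunit gene Kcnab2, was at 17.8, 4.01 and 21 and 18.8, 10.3 and 19.3 in cortex and at 35.6, 52.4 and 51.8 and 3.91, 4.51 and 3.87 in hippocampus. All 4 fell in hippocampus and were not called in cortex. In hippocampus 1700126G02Rik, Gm13584 and Gm16333 had knockout values under 10 and passed the filter on the mean through their wild-type libraries alone. Their differences therefore describe models selected there for a high wild-type value. The fifth, A930024E05Rik, went the other way and fell in cortex.

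A list of 40 gene symbols, 38 of them found, was set beside the models. Those not found, Skiv2l2 and Cpsf3l, are older names of Mtrex and Ints11, which are on the list too. Most of the genes process, terminate or degrade RNA. The list also holds the RNA editing genes Adar and Adarb1 and the chromatin genes Ezh2, Suz12, Eed and Jarid2. In cortex limma called 0 of 38, with 7 at an unadjusted p below 0.05 and a median of 0.02; count-based tests were not run there. In hippocampus 4 rose and 12 fell, with a median of -0.03. Over all genes tested 14.1% rose and 15.1% fell in hippocampus, and 1.28% rose and 0.661% fell in cortex. The falls included Smg1, a kinase of nonsense-mediated decay (-1.32), the small-RNA effectors Ago3 (-0.85) and Ago2 (-0.84), the nuclear exosome adaptor Zfc3h1 (-0.70), the RNase Dicer1 (-0.69) and the cytoplasmic exonuclease Xrn1 (-0.58). The rises were of the nuclear exonuclease Xrn2 (0.22), Cpsf2, which acts in 3′ end formation (0.23), the spliceosome component Snrpc (0.21) and the decay helicase Upf1 (0.14). The core exosome gene Exosc3 and the exosome helicase Mtrex were not called, with -0.05 and 0.12. These are changes in the factors' own RNA on the log2 scale, and their relation to the models was not tested.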

How the data were processed

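Total RNA of 12 libraries (4 groups of 3) was analysed. The deposited tables, 1 for each tissue, hold counts scaled by size factors, a signal with no negative values; per the submitters' processing notes the authors used STAR, HTSeq and DESeq2 with GRCm38, versions and strand setting not given in the sources used here. Values were whole multiples of 1 step a library for 100.0% of values (within 0.001 of a read). Read totals are in the report, and low values rest on few reads. Genes were matched to GENCODE M21 for 55227 of 55487 rows. Kcnq1ot1 was left out by the rule.

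For each tissue, log2(value + 1) of genes with a mean of at least 10 was fitted with limma 3.58.1 (R 4.3.3), variance trend on, with Benjamini-Hochberg adjustment over all genes tested, or over all opposite-strand pairs for ratios, and calls at an adjusted p below 0.05. Fold changes on this scale understate changes of low genes. The tissue difference was the interaction over all 12 libraries. Scripts were tested on simulated data. Python 3.11.15 with pandas 2.3.3 served for tables; edgeR 4.0.16 and DESeq2 1.42.0 were alternatives in hippocampus. Other alternatives were the pseudocount, filter, scaling, length correction, replicate block, partner definition and leaving out each library.

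Models named were, in each tissue, the 8 largest called rises and falls with groups that do not overlap and a mean of at least 50. The 6 smallest ratio p of each sign with a mean of at least 50, the 5 smallest interaction p and the 5 highest levels per kilobase were named too. Outside these rules, every model called in cortex or with a called tissue difference was named because it was called. All others are marked as chosen after their values were seen. The models and lists were chosen with earlier results of these data known. Replicate numbers did not pair libraries.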

Additional observations from a re-analysis of the deposited data

Results flagged for a closer look

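The knockout effect of 13 antisense models differed between hippocampus and cortex by a test of the difference itself, limma's interaction of tissue and genotype over 12 libraries with adjustment over all 21282 genes tested. Values are the hippocampus effect minus the cortex effect on the log2 scale. The difference of 1700126G02Rik was -2.77 and stayed called without any one library. That of Gm13584 was -2.56 and also stayed called without any one library. AC110206.1 had -2.05, a call lost without cortex knockout library 2 (adjusted p 0.0632) or 3 (0.0547), hippocampus wild-type library 3 (0.0541) or hippocampus knockout library 2 (0.0512). Gm16333 had -3.58, a call lost without cortex knockout library 1 (0.0664) or 3 (0.0773), hippocampus wild-type library 3 (0.0813) or any 1 hippocampus knockout library (0.0616, 0.0662 and 0.0652). In hippocampus 1700126G02Rik, Gm13584 and Gm16333 passed the filter on the mean through their wild-type libraries alone.

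The other 9 were each lost without 8 or 9 of the 9 cortex knockout and hippocampus libraries taken singly, with highest adjusted p values of 0.0922 to 0.124. With no filter on low values all of these 9 but A930024E05Rik were lost (0.0626 to 0.0803), and with no variance trend 6 of them (0.0601 to 0.097). AC140336.1 was lost with a pseudocount of 5 (0.0619) and with quantile normalization (0.0603) too. With the replicate block the 13 differences were lost but for those of 1700126G02Rik, Gm16333 and AC129188.1; Gm13584 had 0.0778 and AC110206.1 0.0755. The labels do not tie same-numbered libraries of the 2 tissues to an animal. They were Gm48239 with -1.56, AC129188.1 with -2.20, Gm41505 across from the potassium channel gene Kcnj6 with -1.74, Gm26724 in Lemd2 with -1.91, AC140336.1 in the G protein gene Gnal with -2.68, Mypopos in Mypop with -1.15, CT025652.1 in the Fanconi anaemia gene Fance with -1.06, A930024E05Rik with 0.74 and AC137853.2 across from the phosphatase gene Dusp5 with 1.74. CT025652.1 was at 51.5, 46.1 and 54.5 in wild-type and 81.8, 61.1 and 78.1 in knockout cortex and at 85.5, 83.5 and 71.9 and 55.6, 54.1 and 55.1 in hippocampus, so its groups were separate in both tissues and in opposite order. AC137853.2 was at 32.7, 40.1 and 30.6 and 29.2, 14.5 and 26.7 in cortex and at 14.2, 13.9 and 16.9 and 30.3, 37 and 36.7 in hippocampus, the opposite order again. Mypopos was at 190.2, 117 and 188 and 228, 206 and 221 in cortex and at 262, 212 and 226 and 147, 149.7 and 128 in hippocampus.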

How the results depend on the processing

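The number of models called in hippocampus, 224, was 115 with a minimum mean of 50, which tests fewer genes, and 124 to 201 in leave-one-out fits; in the other alternatives it was 185 to 232, with 230 by edgeR and 212 by DESeq2. The 6 called in cortex became 1 with no filter, 1 with no variance trend, 21 with the length trend removed, 1 with the replicate block, and 0 to 118 leaving out 1 library. The 222 ratios called in hippocampus became 124 with a minimum mean of 50, 142 with partners that share exon bases and 129 to 197 leaving out 1 library. The 2 called in cortex became 5 with a pseudocount of 5, 1 with no filter, quantile normalization, no variance trend, the length trend removed, the replicate block or exon-sharing partners, and 0 to 85 leaving out 1 library. The 13 tissue differences became 7 with no filter, 3 with the replicate block and 2 to 32 leaving out 1 library. The cause was not tested. The median change of hippocampus models turned from -0.22 to 0.034 with quantile normalization, and B230334C09Rik in cortex from 0.00 to -0.30 without wild-type library 2 (0.16 without library 1). For single named models, alternatives other than leaving out a library left the call as it was in 794 cases, lost it in 63 and gained one in 1. Leaving out a library left it as it was in 498, lost it in 155 and gained one in 13, and in 1 more an uncalled change was called with the other sign. Among the cases left as they were, changes that were not called took the other sign in 4 and in 20; every called change of these models kept its sign in the alternatives run. Same-numbered libraries of the 2 genotypes did not deviate together (correlations of -0.0266, 0.0915 and -0.023 in hippocampus and -0.0255, 0.0047 and -0.0649 in cortex), so the replicate block, which left 185 calls in hippocampus and 190 ratios, is given here and for the tissue differences; it also lost 2810468N07Rik (0.0535) in hippocampus, every cortex model but Srrm4os and the cortex ratio of AC132148.1. edgeR and DESeq2 were not run in cortex, because reads of 2 wild-type libraries were not recovered with certainty.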
